A study of Mus musculus with 9 samples.

Results

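Transcripts of 10 genes that are known from neutrophils were followed in RNA of sorted mouse microglia: *S100a8*, *S100a9*, *Lcn2*, *Ngp*, *Camp*, *Ltf*, *Mmp8*, *Mmp9*, *Retnlg* and *Cxcr2*. They are 10 of the 24421 genes of the count table and were found by their symbols. *S100a8*, *S100a9* and *Lcn2* were chosen by their measured levels, which differed between the groups of these libraries, so their values are given as a description with no test. The other 7 stand for neutrophil granule proteins and a neutrophil receptor, and tests are given for them, with the reservation that the set was drawn up with earlier results of these data known.

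The study compared microglia of 2 lysosomal storage diseases with wild-type microglia. The 9 libraries comprised 3 of littermate control mice (WT), 3 of Fabry disease mice, *Gla* y/- (FD), and 3 of mucolipidosis type IV mice, *Mcoln1*-/- (MLIV), with no treatment in any group. *Gla* encodes a lysosomal alpha-galactosidase, and *Mcoln1* encodes the lysosomal cation channel mucolipin 1. All mice were on a C57BL6 background (the labels spell the strain C57CL6J). The *Mcoln1* allele was kept in heterozygotes that were intercrossed for mutant and control littermates, whereas the *Gla* allele was kept in homozygotes. The series title gives an age of 4 months, whereas the study's methods give 2 months and 4 mice per condition, and how the mice map to the 3 libraries of a group is not given in the sources used here. Live cells positive for CX3CR1, CD45 and CD11b were sorted from brain. CD45 and CD11b are also carried by neutrophils, monocytes and other myeloid cells, and CX3CR1 marks microglia and, more weakly, monocytes. In bulk RNA of this kind, fewer cells of a type and less RNA per cell cannot be told apart.

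Neutrophils are short-lived granulocytes that are made in the bone marrow and circulate in blood. As they mature they fill successive kinds of granules. Azurophil granules come first and carry myeloperoxidase and serine proteases, specific granules follow with lactoferrin and lipocalin 2, and gelatinase granules come last with matrix metalloproteinases, while calprotectin, the S100A8 and S100A9 pair, fills the cytosol. Transcripts of azurophil proteins are therefore made mainly in marrow precursors, and those of calprotectin remain abundant in blood neutrophils. The healthy brain parenchyma holds few neutrophils, and these transcripts serve here as a measure of RNA from cells other than microglia. Several of the genes, among them *Lcn2*, *S100a8* and *S100a9*, can also be induced in other cells during inflammation.

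Calprotectin is encoded by neighbouring genes on chromosome 3 (coordinates are mm10), *S100a8* from 90669071 to 90670034 and *S100a9* from 90692630 to 90695721, 22.6 kb apart. *Ngp* (chromosome 9, 110419808 to 110423012), *Camp* (109847377 to 109849456) and *Ltf* (111019292 to 111042766) also lie near each other, with 570.4 kb between *Ngp* and *Camp* and 596.3 kb between *Ngp* and *Ltf*. *Mmp8* is on the same chromosome far from them (7558429 to 7568486). *Lcn2* (32384637 to 32387739) and *Mmp9* (164948219 to 164955849) are on chromosome 2, *Retnlg* is on chromosome 16 (48872608 to 48874498), and *Cxcr2* is on chromosome 1 (74153994 to 74161246).

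Promoters are shown for 4 members from different roles whose levels moved together. C/EBP factors and PU.1 are the best known regulators of granule genes, and their motifs were searched on both strands of the 250 bases before the start site, as TTNNGNAA for C/EBP and GAGGAA for the core of a PU.1 site. RefSeq promoters on GRCm38.p6, which has the mm10 chromosomes, were matched to 9 of the 10 members. The C/EBP letters occurred in 7 of these 9, beside 36.8% of 32851 promoters of the same length, and the PU.1 letters in 5 of 9, beside 23.3%. TATAAA, searched in the same way, occurred in 1 of 9 (*S100a8*), beside 12.4%, and no match to 1 motif overlapped a match to another. A match is a run of letters, not an observed binding site. In the sequences each run ends at the base before the start site, and capitals mark the C/EBP matches:
S100a8, chr3:90668821-90669070, plus strand: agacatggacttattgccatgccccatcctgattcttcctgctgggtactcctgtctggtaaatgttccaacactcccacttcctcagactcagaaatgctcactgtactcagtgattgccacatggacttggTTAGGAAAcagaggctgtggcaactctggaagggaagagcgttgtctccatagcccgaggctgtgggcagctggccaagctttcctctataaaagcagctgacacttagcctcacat
S100a9, chr3:90695722-90695971, minus strand: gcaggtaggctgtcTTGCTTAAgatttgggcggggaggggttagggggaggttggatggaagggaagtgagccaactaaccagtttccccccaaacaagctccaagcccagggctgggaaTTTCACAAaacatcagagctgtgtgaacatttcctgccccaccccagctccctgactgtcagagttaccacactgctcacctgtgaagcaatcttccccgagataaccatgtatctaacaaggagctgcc
Ngp, chr9:110419558-110419807, plus strand: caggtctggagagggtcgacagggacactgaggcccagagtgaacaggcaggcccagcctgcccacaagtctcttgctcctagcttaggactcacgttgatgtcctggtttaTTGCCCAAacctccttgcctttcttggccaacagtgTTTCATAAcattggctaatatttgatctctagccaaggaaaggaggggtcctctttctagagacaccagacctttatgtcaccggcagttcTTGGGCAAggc
Ltf, chr9:111019042-111019291, plus strand: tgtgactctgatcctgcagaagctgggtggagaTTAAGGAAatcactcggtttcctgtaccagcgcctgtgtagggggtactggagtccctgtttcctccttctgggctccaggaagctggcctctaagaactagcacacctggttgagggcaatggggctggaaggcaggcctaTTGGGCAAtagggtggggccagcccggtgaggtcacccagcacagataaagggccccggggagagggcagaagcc
*Ngp* and *Ltf* shared the match TTGGGCAA on the plus strand, which began 11 bases before the start site of *Ngp* and 75 bases before that of *Ltf*. *S100a8* had 1 C/EBP match, beginning 117 bases upstream, and *S100a9* had 2, beginning 236 and 130 bases upstream.

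The libraries differed in ways that touch every value given here. Totals were 22772260 to 37801159 counts, and between 12032 genes (FD replicate 3) and 22932 genes (WT replicate 1) had a count. *Mcoln1*, the gene deleted in MLIV, had 1082 and 1517 counts in WT replicates 1 and 2, 892 to 1442 in FD and 0, 0 and 18 in MLIV, but only 2 in the library labelled WT replicate 3, which goes against its label. Comparisons with WT are therefore also given for the 8 libraries without it. *Xist*, transcribed from the inactive X chromosome of females, was at 1358 to 1522 CPM (counts per 1e+06 of the TMM-scaled library size) in FD and at 0.523 to 4.12 in WT, and the Y-linked *Ddx3y* was at 0 to 0.0622 CPM in FD and at 89.8 to 118 in WT. Sex and genotype thus cannot be told apart between FD and WT, and the FD libraries went against the hemizygous male genotype that they carry in the study. MLIV replicate 1 was at 1449 CPM of *Xist* and 0 of *Ddx3y*, replicate 2 had both at 1027 and 26.6, and replicate 3 was at 3.998 and 76.8. Ribosomal *Rn45s* took 6.81% to 7.71% of counts in MLIV, 4.73% to 7.28% in WT and 4.38% to 4.68% in FD. Without *Rn45s* in the library sizes the members called were again 3, 0 and 0 of 7 for MLIV against FD, MLIV against WT and FD against WT. Microglial identity was clear in every library, with 12 of 12 microglia markers detected and a summed level of 24090 to 31300 CPM that overlapped between the groups.

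The neutrophil transcripts were highest in MLIV, intermediate in WT and lowest in FD, with no overlap between the groups in their summed level. The 10 genes together stood at 170, 156 and 291 CPM in the MLIV libraries, at 29.3, 59.1 and 57.2 in the WT libraries and at 5.79, 6.08 and 1.41 in the FD libraries. Group means were 206 ± 74.4 CPM in MLIV, 48.5 ± 16.7 in WT and 4.42 ± 2.62 in FD (SD, n = 3 each). The mean in MLIV was thus 46.5 times that in FD and 4.24 times that in WT, and the mean in FD was 0.0912 times that in WT. Without the 3 picked genes the 7 others summed to 64.0, 66.8 and 119 CPM in MLIV, 18.7, 24.3 and 25.6 in WT and 2.30, 3.58 and 0.067 in FD, and the order of the groups and their separation were as before. Against the microglia markers all of these sums were small. With any single library left out, the ratio of the sums was 34.7 to 57.2 for MLIV to FD and 3.36 to 4.76 for MLIV to WT. For FD to WT it was 0.0742 to 0.122. As the groups did not overlap, such a removal could not change the direction.

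These values rest on few reads at the low end. FD replicate 3 had only 42 counts over the 10 genes, 38 of them from *S100a9*, whereas MLIV replicate 3 had 9324. A count was present for all 10 genes in every WT and MLIV library and in FD replicate 2, for 7 genes in FD replicate 1 and for 3 in FD replicate 3. A count of 0 allows a level of up to 0.0850 to 0.116 CPM, depending on the library (3 counts). Of the 80 member counts above 0, 76 were even (95%), beside 55.9% to 75.5% of all nonzero counts in a library. Mates were counted singly, so a fragment can give more than 1 count, and the limits and intervals, which cover counting error of single counts only, are then too low and too narrow.

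**Figure D1:**
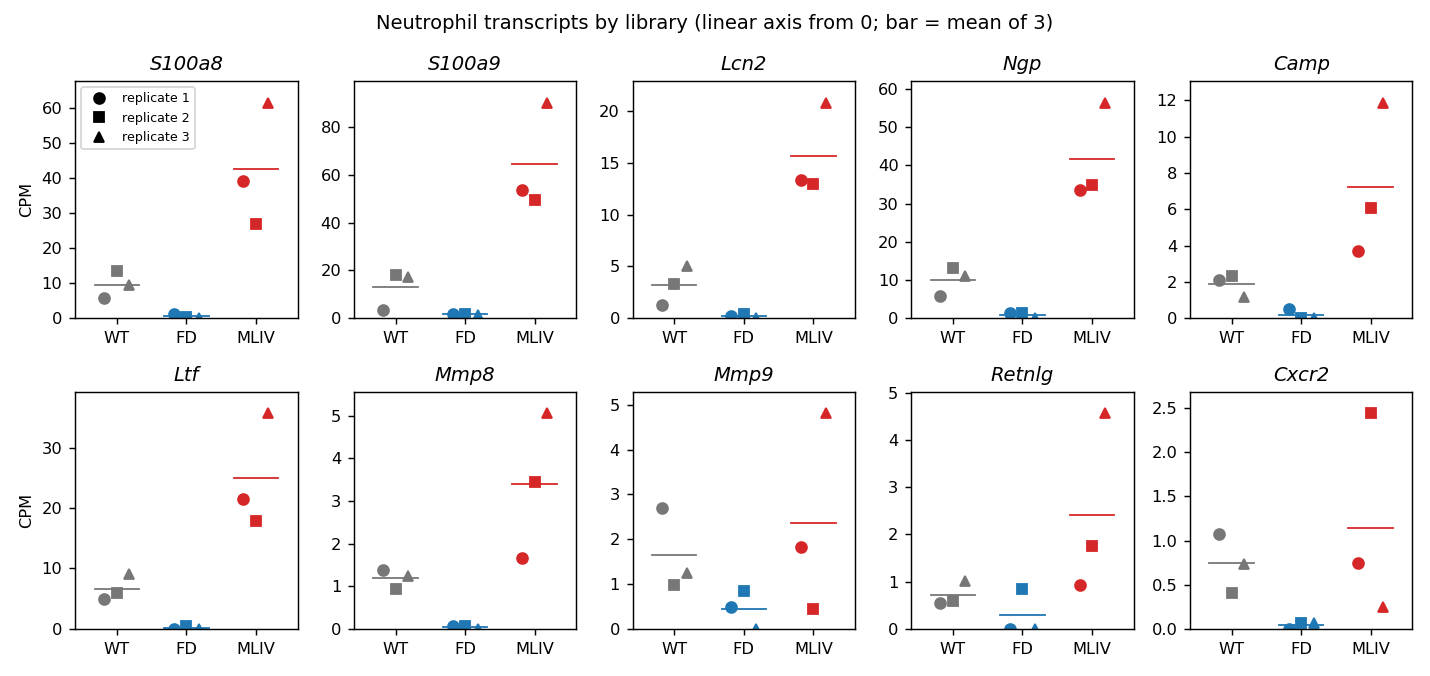
Level of each of the 10 transcripts (y axis, CPM on a linear axis from 0, scaled per gene) in the 3 WT, 3 FD and 3 MLIV libraries (x axis), with a marker shape for each replicate number and a bar at the group mean. The MLIV libraries lie above every FD library for 9 genes and above every WT library for 7, and *Mmp9*, *Retnlg* and *Cxcr2* are the genes with overlap.

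*S100a8*, which with *S100a9* forms a calcium- and zinc-binding heterodimer released by activated neutrophils, stood at 5.86, 13.4 and 9.47 CPM in WT replicates 1 to 3, at 1.31, 0.460 and 0 in FD and at 39.2, 26.8 and 61.6 in MLIV. *S100a9* stood at 3.47, 18.1 and 17.1 CPM in WT, at 1.93, 1.64 and 1.27 in FD and at 53.7, 49.3 and 90.2 in MLIV. For both genes every MLIV library was above every WT library and every WT library above every FD library, with MLIV replicate 3 the highest and, for *S100a9*, WT replicate 1 the lowest of WT. The fitted log2 fold change of *S100a8* was 6.15 ± 0.92 (SE) for MLIV against FD, 2.15 ± 0.74 for MLIV against WT and -3.999 ± 0.86 for FD against WT. That of *S100a9* was 5.31 ± 0.60, 2.32 ± 0.51 and -3.00 ± 0.55 in the same comparisons. The fold changes describe genes that were picked for this pattern and carry no test.

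Among the specific granule genes, *Lcn2* encodes lipocalin 2, a protein that binds bacterial siderophores. It stood at 1.23, 3.25 and 4.99 CPM in WT, 0.249, 0.394 and 0.067 in FD and 13.3, 12.95 and 20.8 in MLIV. The groups did not overlap, and the log2 fold change was 6.02 ± 0.71 for MLIV against FD, 2.31 ± 0.58 for MLIV against WT and -3.72 ± 0.66 for FD against WT, again with no test. *Ngp*, neutrophilic granule protein, is a mouse member of the cystatin and cathelicidin family. Its level was 5.94, 13.1 and 11.1 CPM in WT, 1.24, 1.25 and 0 in FD and 33.6, 34.8 and 56.4 in MLIV. It followed the same order as calprotectin without overlap. *Camp*, which encodes the cathelicidin antimicrobial peptide, stood at 2.12, 2.32 and 1.19 CPM in WT, 0.498, 0.0329 and 0 in FD and 3.68, 6.07 and 11.9 in MLIV. Its groups did not overlap either, although FD replicate 2 held a single count. *Ltf*, which encodes the iron-binding lactoferrin, stood at 4.93, 5.99 and 9.13 CPM in WT, at 0, 0.460 and 0 in FD and at 21.5, 17.8 and 35.7 in MLIV. All 14 *Ltf* counts of FD came from replicate 2, while the other groups held 128 to 1142 counts in each library.

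Of the granule proteases, *Mmp8*, which encodes neutrophil collagenase, stood at 1.39, 0.930 and 1.25 CPM in WT, 0.0622, 0.0657 and 0 in FD and 1.67, 3.44 and 5.06 in MLIV. The groups did not overlap, and each FD library had at most 2 counts. *Mmp9*, which encodes gelatinase B, a protease also made by macrophages, stood at 2.70, 0.988 and 1.25 CPM in WT, 0.498, 0.854 and 0 in FD and 1.84, 0.438 and 4.81 in MLIV. It did not follow the other genes: MLIV replicate 2 fell below FD replicates 1 and 2 and below every WT library. *Retnlg*, which encodes a secreted resistin-like protein found in mouse neutrophils, stood at 0.540, 0.581 and 1.02 CPM in WT, 0, 0.854 and 0 in FD and 0.919, 1.75 and 4.56 in MLIV. MLIV and FD were separate here, but MLIV replicate 1 lay below WT replicate 3, and FD replicate 2, with 26 counts, lay within WT. *Cxcr2*, the receptor of the chemokines that draw neutrophils out of marrow and into tissue, stood at 1.08, 0.407 and 0.737 CPM in WT, 0, 0.0657 and 0.067 in FD and 0.747, 2.44 and 0.250 in MLIV. FD was below both other groups, whereas MLIV reached on either side of WT and MLIV replicate 3, the highest library for 9 of the members, was the lowest of the 6 WT and MLIV libraries.

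Per length of transcript, calprotectin led in every group. In MLIV the mean level was 123 CPM per kb for *S100a9* and 109 for *S100a8*, followed by *Ngp* at 35.8, *Lcn2* at 18.4, *Camp* at 12.03, *Ltf* at 9.12, *Retnlg* at 3.97, *Mmp8* at 1.38, *Mmp9* at 0.744 and *Cxcr2* at 0.377. The calprotectin genes did not differ from each other beyond the spread of the 3 libraries, *Ngp* was separate from its neighbours on both sides, and from *Lcn2* downwards each neighbouring pair overlapped. In WT the mean levels per kb were 24.6 for *S100a9*, 24.4 for *S100a8*, 8.64 for *Ngp*, 3.70 for *Lcn2*, 3.14 for *Camp* and 2.44 for *Ltf*, in the same order as in MLIV.

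MLIV against FD gave the widest differences. Of the 7 members with a test, *Ltf*, *Ngp* and *Mmp8* were upregulated in MLIV at an adjusted p below 0.05 (edgeR quasi-likelihood test over 15340 genes, Benjamini-Hochberg), and no member was lower. The same rule called 0.717% of all genes higher. The log2 fold change was 7.32 ± 1.00 for *Ltf* (adjusted p = 0.00758), 5.63 ± 0.88 for *Ngp* (adjusted p = 0.0243) and 6.18 ± 1.27 for *Mmp8* (adjusted p = 0.0433). *Camp* had a change of 5.30 ± 1.20 that narrowly missed the threshold (adjusted p = 0.0545), and it passed in the fit of 8 libraries (adjusted p = 0.0196), which called 4 of the 7 members beside 3.5% of all genes higher. *Cxcr2* (4.58 ± 1.75), *Retnlg* (3.07 ± 1.71) and *Mmp9* (2.38 ± 1.39) had adjusted p-values of 0.172 to 0.383. The median over the 7 members was 5.30, beside 0.03 over all genes tested. DESeq2 called *Ngp*, *Camp* and *Ltf*, beside 6.73% of all genes higher, and gave the other 4 no adjusted p. Groups did not overlap for 6 of the 7, *Mmp9* being the exception, beside 16% of all genes that were higher without overlap. The calls rested on few libraries: without MLIV replicate 1, and likewise without MLIV replicate 3, 0 of 7 passed, and 1 passed without WT replicate 2, FD replicate 2 or MLIV replicate 2, while every log2 fold change stayed positive. Calls over all genes fell as well, from 194 to 57, 52 and 54 without MLIV replicates 1, 2 and 3. They numbered 151 without WT replicate 2 and 283 without FD replicate 2. Without FD replicate 2 the FD libraries were at 0 for *Ltf*, so that the size of its change rests on that library.

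Against WT, the MLIV values were higher for most members but no member passed. The fit called 0 of 7, and 0 of all 15340 genes (0%), while 2 of 7 members, *Ngp* and *Ltf*, had an unadjusted p below 0.05, as did 4.64% of all genes, and DESeq2 called 0 of 7, beside 0.0526% of all genes higher. The log2 fold change was 2.05 ± 0.73 for *Ngp*, 1.94 ± 1.01 for *Camp*, 1.90 ± 0.74 for *Ltf*, 1.75 ± 1.62 for *Retnlg* and 1.51 ± 1.01 for *Mmp8*, and it was 0.63 ± 1.48 for *Cxcr2* and 0.52 ± 1.32 for *Mmp9*, all at an adjusted p of 0.999. The median over the 7 was 1.75, beside -0.03 over all genes. Every MLIV library was above every WT library for 4 of the 7 (*Ngp*, *Camp*, *Ltf* and *Mmp8*), beside 6.56% of all genes. Without the library labelled WT replicate 3 the fit again called 0 of 7, with adjusted p-values of 0.515 to 0.983, beside 1.55% of all genes higher. *Ngp* passed once FD replicate 3 was left out of the shared fit, where its change was 2.05 ± 0.29 and 5 of all genes were called. The change of *Mmp9* turned to -0.52 without MLIV replicate 3 and that of *Cxcr2* to -0.56 without MLIV replicate 2. With the WT libraries reduced to replicates 1 and 2, *Ngp*, *Camp*, *Ltf*, *Mmp8* and *Retnlg* were higher without overlap, beside 19.7% of all genes. *Mmp9* and *Cxcr2* overlapped.

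FD against WT ran the other way. Every FD library was below every WT library for 6 of the 7 members, *Retnlg* being the exception, beside 5.76% of all genes. None of the 7 passed the edgeR threshold, under which 0.169% of all genes were lower, though 5 of 7 had an unadjusted p below 0.05, as did 8.01% of all genes in either direction. *Ltf* came nearest with a log2 fold change of -5.42 ± 0.95 (adjusted p = 0.0528). By size of change the next were *Mmp8* at -4.67 ± 1.20, *Cxcr2* at -3.96 ± 1.70, *Ngp* at -3.58 ± 0.82 and *Camp* at -3.37 ± 1.11. *Mmp9* was at -1.86 ± 1.37 and *Retnlg* at -1.32 ± 1.62. DESeq2 called *Mmp8* (adjusted p = 0.00117) and *Ltf* (adjusted p = 0.00385) lower, beside 0.691% of all genes lower, and edgeR called 1 member when an FD library was left out (*Camp* without replicate 1, *Ltf* without replicate 2 and *Ngp* without replicate 3). Over all genes these removals gave 37, 40 and 77 calls in either direction. With 8 libraries 0 of 7 passed, beside 0.138% of all genes lower. Each of the 7 except *Retnlg* lay below WT replicates 1 and 2 without overlap, beside 9.68% of all genes. The median of the 7 was -3.58, beside -0.08 over all genes, and the difference in the sex-linked transcripts between FD and WT stands beside it. The comparisons share their groups, so the values of a gene in all 3 are not independent.

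**Figure D2:**
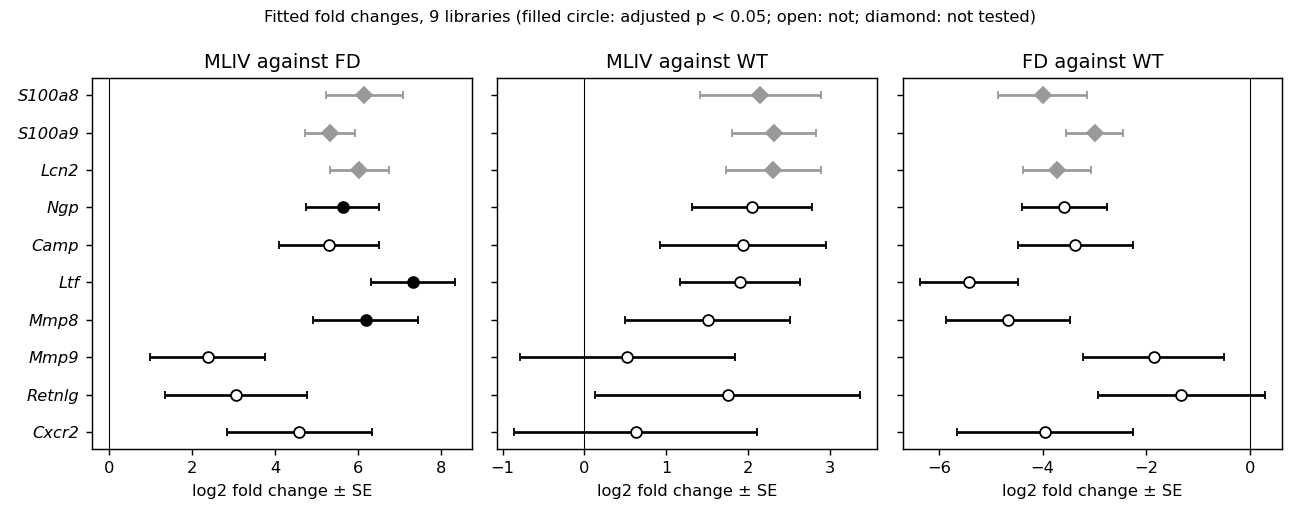
Fitted log2 fold change (x axis, ± SE, 9 libraries) of each member (y axis) in the 3 comparisons. Filled circles mark an adjusted p below 0.05, open circles a higher one, and grey diamonds the 3 picked genes, which have no test. *Ngp*, *Ltf* and *Mmp8* are filled for MLIV against FD only, and the remaining comparisons hold no filled circle.

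Within a library, *Ngp*, *Ltf* and *Lcn2* stood in similar proportions to *S100a9* in the 3 MLIV libraries. The ratio of *Ngp* counts to *S100a9* counts was 0.626, 0.706 and 0.625 in MLIV and 0.723 and 0.648 in WT replicates 2 and 3, but 1.71 in WT replicate 1 (95% interval 1.32 to 2.22, Wilson). For *Ltf* the ratio was 0.400, 0.362 and 0.395 in MLIV, and 1.42, 0.330 and 0.535 in WT. For *S100a8* it was 0.729, 0.543 and 0.683 in MLIV, and 1.69, 0.737 and 0.555 in WT. WT replicate 1, which also had the lowest total and the most genes with a count, thus had a mixture with less *S100a9* than the other WT libraries. *Lcn2* was at 0.231 to 0.263 of *S100a9* in MLIV and at 0.179 to 0.356 in WT. In FD replicates 1 and 2 the *Ngp* ratio was 0.645 and 0.760, within the spread of the other groups. The *S100a8* ratio was 0.677 in FD replicate 1 but 0.280 (0.156 to 0.502) in FD replicate 2, below every WT and MLIV library, and *Ltf* was at 0 of 62 counts of *S100a9* in FD replicate 1, an upper limit of 0.062. FD replicate 3 had *S100a9* without *S100a8*, *Ngp* or *Ltf*, each with an upper limit of 0.101.

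**Figure D3:**
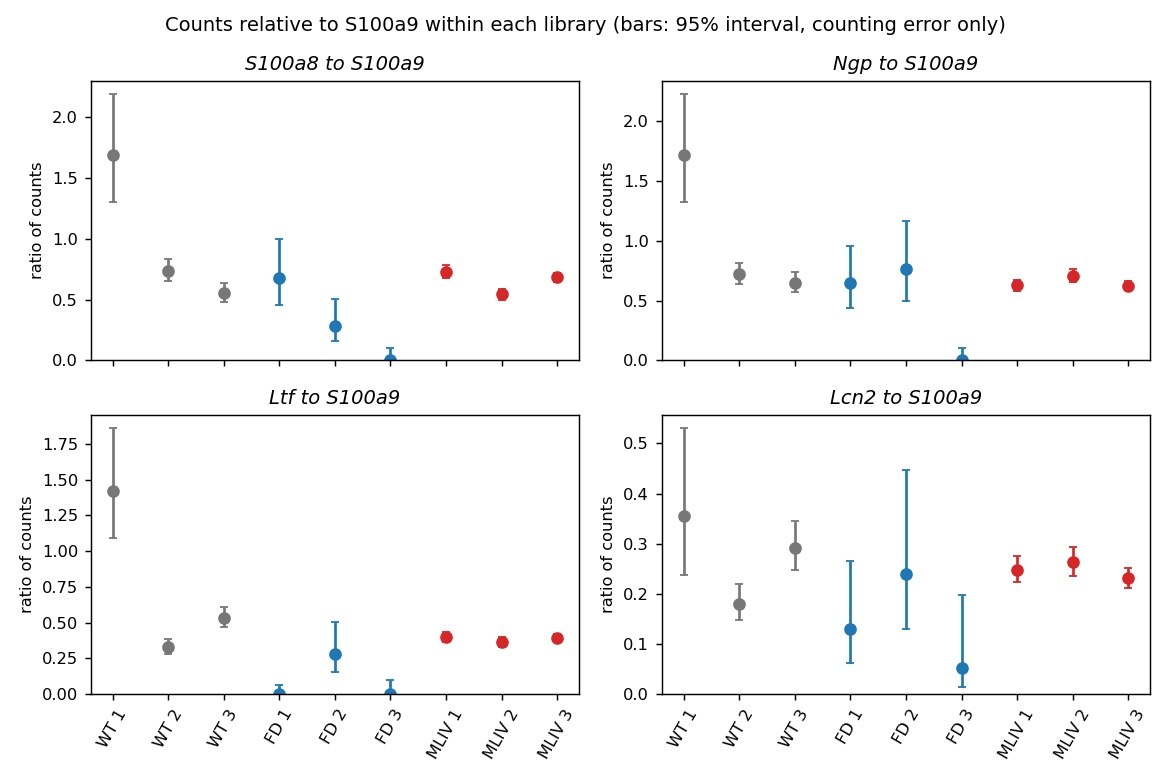
Ratio of the counts of *S100a8*, *Ngp*, *Ltf* and *Lcn2* to those of *S100a9* (y axis, from 0) in each of the 9 libraries (x axis). Bars are 95% Wilson intervals and cover counting error only. The 3 MLIV libraries lie close together for *Ngp*, *Ltf* and *Lcn2* and less so for *S100a8*. WT replicate 1 stands above the rest for *S100a8*, *Ngp* and *Ltf*, and FD replicate 3 is at 0 for these 3.

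Across the 9 libraries the log2 levels of the members ran in parallel to different degrees, which is given as a description, since the libraries share their group, depth and preparation. Pearson's r was highest for *S100a8* with *Ngp* (0.99) and for *S100a9* with *Lcn2* (0.98) and lowest for *Mmp9* with *Cxcr2* (0.363). Of 15330 other genes the closest to the summed level of the members over the 9 libraries were *Osbpl2* (r = 0.982), *Igsf8* (0.973), *Xaf1* (0.972), *Vegfa* (0.969) and *Ifitm6* (0.968), followed by *Hist1h2bc*, *Hmgb1*, *Cd24a*, *Ifi202b* and *Adgrg5* (0.963 to 0.952). Over all genes the 99th percentile of r was 0.893. *Ifitm6* and *Cd24a* are known to be strongly transcribed in maturing neutrophils. *Ifitm6* was at 0.312 to 0.501 CPM in WT, 0 to 0.0657 in FD and 1.16 to 2.59 across MLIV, and *Cd24a* at 0.523 to 1.00, 0 to 0.131 and 1.72 to 3.37. Others in this set were far more abundant, such as *Osbpl2*, an oxysterol-binding protein, at 56.3 to 76.8 CPM in WT, 29.8 to 41.5 in FD and 86.2 to 87.7 across MLIV, and *Xaf1*, an interferon-induced gene, at 35.3 to 104, 7.40 to 19.5 and 105 to 124.

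Neutrophil genes beyond the members gave no call with 9 libraries. Of 38 further genes in the table, 25 passed the filter on low counts, and 0 of 25 passed the edgeR threshold in any comparison. An unadjusted p below 0.05 was found for 6 of 25 for MLIV against FD, beside 19.4% of all genes. It was found for 0 for MLIV against WT, beside 4.64%, and for 4 for FD against WT, beside 8.01%. DESeq2 called 3, 0 and 1 of them, beside 12.8%, 0.0921% and 1.23% of all genes with an adjusted p. The median log2 fold change was 1.91, 0.74 and -1.20 in these comparisons, beside 0.03, -0.03 and -0.08 over all genes, and 23, 19 and 2 of the 25 were positive. Lists of other scarce transcripts varied. For MLIV against FD and FD against WT the medians were 2.44 and -1.62 for T and NK cells and 1.39 and -1.76 for neurons. They were 0.78 and -0.82 for mast cells, basophils and eosinophils (3 genes tested) and 0.785 and -0.65 for erythroid cells (2 tested). B cells, with 2 genes tested, ran the other way at -1.66 and 1.23. In the 8-library fit *Chil3* and *Hp* were upregulated in MLIV against FD, 2 of 30 genes beside 3.5% of all genes.

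The 21 genes of other granule and secreted proteins summed to 25.3 to 30.5 CPM in WT, 4.69 to 14.3 in FD and 50.5 to 73.0 across MLIV, without overlap. *Olfm4*, a granule glycoprotein, stood at 4.66, 4.24 and 12.2 CPM in WT, 3.70, 3.29 and 0 in FD and 13.9, 16.6 and 15.3 in MLIV, with a log2 fold change of 2.71 ± 1.07 for MLIV against FD (adjusted p = 0.205). *Chil3*, a chitinase-like protein of neutrophils and of some macrophages, stood at 4.86, 5.38 and 2.33 CPM in WT, 1.74, 0.526 and 0.067 in FD and 7.87, 7.13 and 16.4 in MLIV. Its change for MLIV against FD was 3.74 ± 0.87 (adjusted p = 0.0547). Haptoglobin (*Hp*), which binds free haemoglobin, was at 1.73, 3.20 and 0.624 CPM in WT, 0.498, 1.12 and 0.804 in FD and 4.77, 6.32 and 5.53 in MLIV, a change of 2.77 ± 0.77 against FD (adjusted p = 0.0799). For these genes every MLIV library was above every FD library. This held for 9 of the 21 genes of the list, beside 16% of all genes tested, and the others overlapped.

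The azurophil granule transcripts, which belong to marrow precursors, varied between libraries of a group. Their 5 genes summed to 0.0850 to 3.28 CPM in WT, 0 to 0.788 in FD and 0.517 to 9.25 across MLIV, with overlap in every comparison, and 1 of the 5 passed the filter. *Mpo*, myeloperoxidase, had 0, 102 and 204 counts in MLIV replicates 1 to 3, 21, 10 and 0 in WT and 2, 20 and 0 in FD. *Elane*, neutrophil elastase, had 0, 36 and 82 counts in MLIV, 6, 6 and 2 in WT and 0 in every FD library. MLIV replicate 1 thus had no count of either transcript, a limit of 0.0862 CPM each, beside 1870 counts of *S100a9*, whereas MLIV replicates 2 and 3 held both. *Prtn3* went the other way, with 18, 14 and 10 counts in MLIV, 4, 2 and 0 in WT and 0 in every FD library. *Ctsg* had 0, 2 and 0 counts in MLIV, 11, 0 and 1 in WT and 0, 4 and 0 in FD. *Ms4a3* had 0 in every MLIV library, 43, 0 and 0 in WT and 12, 0 and 0 in FD.

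Among the surface receptors the most abundant did not follow the members. *Csf3r*, the receptor of granulocyte colony-stimulating factor, which mouse microglia also transcribe, was at 552 to 706 CPM in all 9 libraries, and its log2 fold change for MLIV against FD was -0.13 ± 0.14 (adjusted p = 0.681). It made up most of the summed level of the 12 receptors, which was 561 to 711 CPM with overlap throughout. *Clec4e*, the next in mean level, stood at 1.77, 3.69 and 0.170 CPM in WT, 0.871, 0.657 and 0 in FD and 0.890, 1.31 and 3.56 in MLIV. *Fpr2*, a formyl peptide receptor, had 26, 44 and 54 counts in WT and 32, 28 and 26 in MLIV but 0 in every FD library, with an adjusted p of 0.0666 for MLIV against FD and 0.200 for FD against WT. In CPM the MLIV libraries (0.812 to 0.919) lay below the WT libraries (1.002 to 1.53), with an adjusted p of 0.999.

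Genes that act on or beside the members gave no call with 9 libraries. Of the 7 transcription factors of granulocytes, 6 were tested and 0 passed in any comparison with 9 libraries. For MLIV against FD 2 of these 6 factors had an unadjusted p below 0.05, beside 19.4% of all genes. *Cebpa* and *Runx1* led them, and *Cebpa* was at 363 to 510 CPM in WT, 340 to 520 in FD and 506 to 576 across MLIV. *Cebpe*, the factor of specific granule genes, had 8 to 17 counts in WT, 0 to 16 in FD and 3 to 46 across MLIV, which overlapped. Among chemokines and receptors of neutrophil traffic 0 of 4 tested genes passed, and the list summed to 7.84 to 11.7 CPM in MLIV, above 0.804 to 4.599 in FD, with 1.77 to 13.6 in WT. *Cxcr4*, which retains neutrophils in marrow, was at 2.08, 1.63 and 12.02 CPM in WT, 0.871, 1.81 and 0.402 in FD and 6.002, 8.85 and 10.15 in MLIV, with a change of 3.02 ± 0.81 against FD (adjusted p = 0.0746, and 0.0218 with 8 libraries). The library labelled WT replicate 3 sat with MLIV for this gene. The ligands *Cxcl1*, *Cxcl2* and *Cxcl5*, which act through CXCR2, stayed at or below 0.976 CPM in every library.

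Receptors of calprotectin and lipocalin 2, led by *Cd14* and *Tlr4*, summed to 356 to 396 CPM in MLIV, 343 to 412 in WT and 259 to 420 in FD, and 0 of 7 passed in any comparison (0 of 7 also at an unadjusted p below 0.05). The list of other S100 genes holds 14 entries, 1 of which (*S100pbp*) is a binding protein and no S100 gene. It summed to 55.7 to 72.3 CPM in MLIV, 40.0 to 56.5 in WT and 33.2 to 38.7 in FD, with 0 of 9 called. For MLIV against FD 4 of 9 had an unadjusted p below 0.05, beside 19.4% of all genes. *S100a4*, a calcium-binding protein, was at 0.871 to 1.77 CPM in FD and reached 3.81 to 6.09 in MLIV. Of other metalloproteinases and their inhibitors 0 of 12 were called. An unadjusted p below 0.05 was found for 3 of 12 for MLIV against FD, beside 19.4% of all genes. For MLIV against WT it was found for 2 of 12, beside 4.64%. The list summed to 890 to 1023 CPM in MLIV, 474 to 927 in WT and 491 to 555 in FD. Most of this was *Timp2*, an inhibitor of metalloproteinases, at 322, 428 and 797 CPM in WT, 361 to 426 in FD and 759 to 869 across MLIV. It did not pass with 9 libraries (adjusted p = 0.0653 against FD) and passed in the 8-library fit, with 1.04 ± 0.14 against FD (adjusted p = 0.000418) and 1.104 ± 0.16 against WT (adjusted p = 0.00162). For the NF-kB and acute phase genes 0 of 9 passed. An unadjusted p below 0.05 was found for 3 of 9 for MLIV against FD, beside 19.4% of all genes. For MLIV against WT it was also found for 3 of 9, beside 4.64%. The sum was 540 to 643 CPM in MLIV, 363 to 502 in WT and 416 to 490 in FD, without overlap of MLIV with either. The separation from FD, though not that from WT, rested on *C3*. This gene was at 65.3, 86.6 and 78.5 CPM in MLIV, 13.45, 14.15 and 50.9 in WT and 7.59, 6.73 and 0.737 in FD. In the 8-library fit *C3* was called higher against FD, 1 of 10 genes beside 3.5% of all genes.

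Markers of other cells moved with the members in part. The 8 monocyte markers were all detected in WT and MLIV and summed to 91.5 to 109 CPM in MLIV, above 49.1 to 76.0 in WT and 45.9 to 54.0 in FD, but this separation rested on *Fn1*. The 7 others summed to 49.6 to 62.4 CPM in MLIV, 38.7 to 58.55 in WT and 35.2 to 50.04 in FD, which overlapped. Singly, 3 of the 8 were higher in MLIV than in FD without overlap, beside 16% of all genes: *Fn1*, *Ly6c2* and *Plac8*. *Ly6c2* was at 3.79, 1.88 and 4.12 CPM in MLIV, 0.848, 1.86 and 0.0567 in WT and 0.747, 0.591 and 0 in FD. *Plac8* was at 4.48, 6.82 and 6.78 CPM in MLIV, 1.85, 2.44 and 3.175 in WT and 2.365, 1.15 and 0 in FD. *Fn1*, fibronectin, was the only one that passed, with a log2 fold change of 2.48 ± 0.40 for MLIV against FD (adjusted p = 0.0129), while *Ccr2*, the defining receptor of classical monocytes, was at 12.4 to 17.4 CPM in MLIV, 4.39 to 18.1 in WT and 12.8 to 22.0 in FD. The 6 genes of dividing cells, led by *Mki67* and *Top2a*, summed to 111 to 151 CPM in MLIV, 55.3 to 83.0 in WT and 21.04 to 82.2 in FD. Only these 2 of the 6 were higher in MLIV than in FD without overlap, and the separation of the sum from WT rested on them. The 10 T and NK cell genes summed to 3.88 to 9.96 CPM in MLIV, 2.64 to 11.4 in WT and 0.670 to 3.32 in FD, and the 6 platelet genes were lower in MLIV (25.8 to 32.4 CPM) than in FD (42.6 to 71.1) without overlap. Their part in the neutrophil result was not tested.

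The remaining cell types overlapped between MLIV and both other groups. Border macrophages summed to 203 to 280 CPM in MLIV, 63.9 to 536 in WT and 58.5 to 276 in FD, with the library labelled WT replicate 3 the highest. B cells were at 13.98 to 30.3 CPM over all libraries, dendritic cells at 11.6 to 36.0, endothelial cells at 45.3 to 69.5, neurons at 5.90 to 20.1, astrocytes at 15.4 to 68.7, oligodendrocytes at 57.3 to 81.2, choroid plexus at 52.8 to 212 and mast cells, basophils and eosinophils at 0 to 4.32. Of 9 erythroid genes 6 were at 0 in every library, and the list summed to 1.35 to 12.5 CPM. The erythroid list overlapped between the groups in every comparison.

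**Figure D4:**
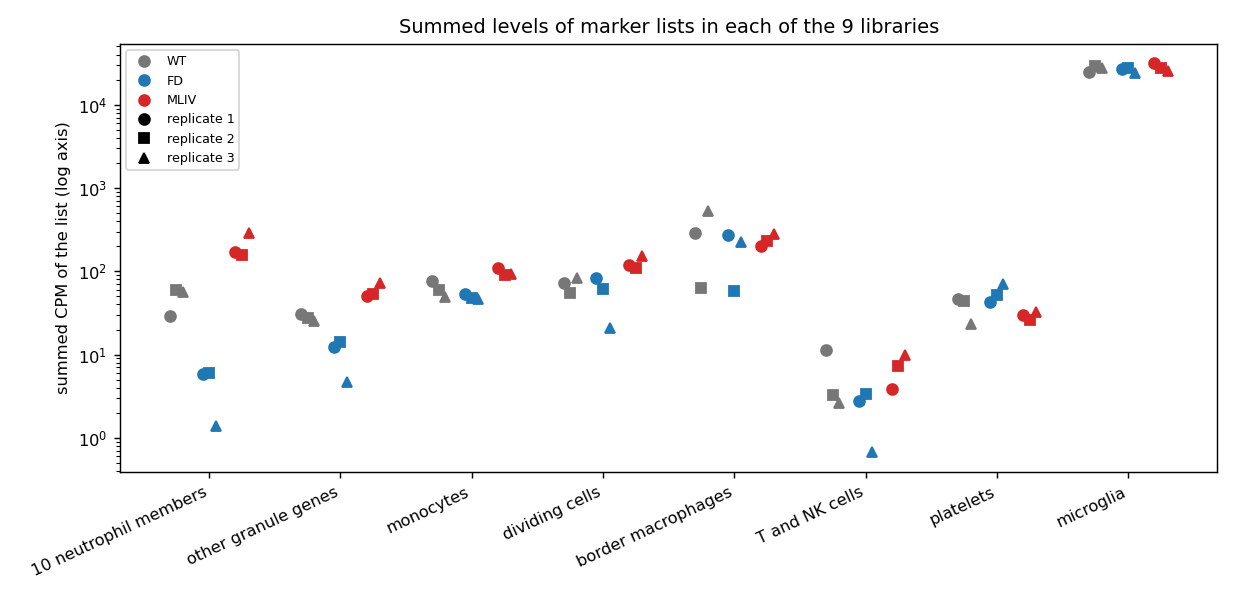
Summed CPM (y axis, log scale) of the 10 members and of 7 other gene lists (x axis) in each library, with colours for the groups and shapes for the replicate numbers. The members span from 1.41 to 291 CPM, and the other granule genes follow the same order of groups. Dividing cell genes, led by *Mki67* and *Top2a*, and, through *Fn1*, monocyte genes are highest in MLIV. Platelet genes are lower in MLIV than in FD, and microglia genes are level.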

How the data were processed

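RNA of sorted microglia was measured in 9 libraries, 3 per group. The libraries were made with a stranded total RNA kit, and the authors aligned reads to mm10 (STAR 2.5.1). Their gene counts came from featureCounts 1.4.6-p3 (the file header gives 1 command over 21 libraries, of which 9 are used here). The deposited counts are whole numbers and not normalized. The command sets neither strand nor pairing, so mates were counted singly and reads of antisense genes cannot be told apart. The authors also deposited their own DESeq2 results for each mutant, with a normalized signal, a log2 fold change, an error, a test score and a p-value per gene, and these were not used. Per-sample columns left unused were 0.

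The members and gene lists were chosen with earlier results of these data known. Of 222 listed symbols, 2 were not in the table. Genes were kept by filterByExpr (15340 with 9 libraries, 17440 with 8), and all 10 members passed, also with the MLIV libraries left out of the filter. Counts were scaled by TMM and fitted with 1 mean per group over 9 libraries by edgeR 4.0.16's robust quasi-likelihood model in R 4.3.3. The threshold was an adjusted p of 0.05 (Benjamini-Hochberg) with any fold. Errors are the absolute fold change on the log2 scale over the square root of F. The script was tested on simulated data. CPM are counts per 1e+06 of the TMM-scaled library size. Correlations used log2 CPM with a prior count of 2, and 1 was added to the summed CPM. Named were all members, up to 4 called genes with the smallest p and the 2 most abundant genes of each list, the 10 genes most like the members, and *Mcoln1*, *Gla*, *Xist* and *Ddx3y*; *Gla* was at 4.56 to 4.83 CPM in FD, 4.59 to 10.8 in WT and 11.7 to 17.4 in MLIV, so that FD was at the level of WT replicate 1 and the counts do not check the FD label. *Chil3*, *Hp*, *Fpr2*, *Cebpe*, *Cxcr4*, *S100a4*, *C3*, *Prtn3*, *Ctsg*, *Ms4a3*, *Ly6c2*, *Plac8*, the CXCR2 ligands and the values singled out beside them were added after their values were seen. Nothing says that libraries of a group came from separate animals, so p-values measure the spread between libraries. No pair of libraries was a duplicate. Alternatives were DESeq2 1.42.0, RLE factors, library totals, other filters, 2 groups only, a replicate block, the removal of each library and, chosen after seeing the data, of WT replicate 3 and FD replicate 3 together and of *Fn1* from the monocyte list.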

Additional observations from a re-analysis of the deposited data

How the results depend on the processing

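The summed level of the 10 members kept its direction in every alternative run, including RLE factors, library totals, TPM, no *Rn45s* and the 7 genes alone. When single libraries were left out the ratio was 34.7 to 57.2 for MLIV to FD, 3.36 to 4.76 for MLIV to WT and 0.0742 to 0.122 for FD to WT. Of the log2 fold changes of single genes, 190 of 190 alternatives kept the direction for MLIV against FD, 189 of 191 for MLIV against WT and 191 of 191 for FD against WT. The 2 reversals were *Mmp9* without MLIV replicate 3 (-0.52) and *Cxcr2* without MLIV replicate 2 (-0.56), both for MLIV against WT, where single removals gave -0.52 to 1.08 for *Mmp9* and -0.56 to 1.11 for *Cxcr2*. Library totals moved the median of all genes by over 0.1 for MLIV against FD (from 0.03 to -0.10) and for MLIV against WT (from -0.03 to -0.18), and split the calls for MLIV against FD into 219 higher and 329 lower in place of 110 and 84.

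Counts of calls were less stable, and the cause was not tested. For MLIV against FD, 3 members were called, 0 to 4 with a library left out and 1 with the replicate block. With at least 10 counts in every library none of the 7 members with a test was left. Other neutrophil genes, with 0 called for MLIV against FD, gave 3 with DESeq2, 2 with no filter, 1 with at least 10 counts in every library, 0 to 4 with a library left out, 4 with DESeq2 and 1 with the block when WT replicate 3 was left out, and 5 without WT replicate 3 and FD replicate 3 (chosen after seeing the data). Calls over all genes rose in the last setting as well, from 194 to 1885. For MLIV against WT, 0 to 1 members were called with a library left out, and without both of these libraries 1 member (*Ngp*) and 1 other neutrophil gene (*Olfm4*). For FD against WT, where 0 were called, 2 members were called with DESeq2, 1 with RLE factors, 1 with library totals, 1 with DESeq2 without WT replicate 3, 1 without both libraries and 0 to 1 with a library left out; 1 other neutrophil gene (*Fpr2*) was called with DESeq2, also without WT replicate 3, and 0 to 1 with a library left out.

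Over all genes the calls for MLIV against FD numbered 194, but 1498 with DESeq2, 548 with library totals, 637 with no filter, 600 with at least 10 counts in every library, 699 with only those groups, 87 with the replicate block and 52 to 982 with a library left out. With WT replicate 3 left out they numbered 1812 with DESeq2, 1381 with the block and 1885 when FD replicate 3 was left out too. For MLIV against WT they numbered 0, but 14 with DESeq2 and 0 to 296 with a library left out (296 without WT replicate 3), and with WT replicate 3 left out 717 with DESeq2, 471 with the block and 1515 when FD replicate 3 was left out too. For FD against WT they numbered 52, but 173 with DESeq2, 94 with no filter, 33 with only those groups and 37 to 77 with a library left out. With WT replicate 3 left out they numbered 126 with DESeq2, and 122 with edgeR when FD replicate 3 was left out too. The replicate numbers did not pair the samples: deviations of same-numbered libraries correlated at -0.298 to 0.19 over 9 pairs, and 2 of 9 libraries correlated best with their own number. Counts under 3 per library set the limit in FD.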
